A study of Mus musculus with 16 samples.

Results

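The genes described here are 8 of the 55487 genes measured in the livers of obese mice. They are Glul, Slc1a2, Rhbg, Oat, Axin2, Lgr5 and Tbx3, all genes of the pericentral zone that depend on Wnt signalling, together with the periportal glutaminase gene Gls2. They were chosen by name, through the mouse gene identifiers of the table, and all 8 were found. Liver RNA was sequenced from 16 male C57BL6/J mice, with 1 library per mouse and 4 mice in each of 4 groups. Every mouse had first eaten a 60 kcal% high fat diet for 8 weeks from 10 weeks of age, by the sample records, and was housed singly. Each group then received a high fat diet of standard protein content (SP) or of high protein content (HP). The study's methods place this change of diet before the first injection. Daily subcutaneous injections followed for 22 days, of vehicle or of G108, a glucagon receptor agonist, at 2.5 nmol/kg. The vehicle groups are called vehicle SP and vehicle HP, and the treated ones G108 SP and G108 HP. The records place the cull on day 25 after a 4 h fast. The study's methods instead give a younger starting age, a shorter period on the 60 kcal% diet and a cull on the last day of treatment. No lean mouse was sequenced, so each comparison is within diet-induced obesity.

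Hepatocytes are zoned along the axis of the lobule, from the portal vein to the central vein. Endothelial cells of the central vein release Wnt ligands and R-spondin, and β-catenin in the nearest hepatocytes then switches on the pericentral genes. Ammonia that escapes the urea cycle of periportal cells is captured there: RHBG and the glutamate carrier SLC1A2 (GLT-1) take up the substrates, OAT makes glutamate from ornithine, and glutamine synthetase (GLUL) joins glutamate and ammonia. Liver glutaminase (GLS2) does the reverse in periportal cells and feeds ammonia to the urea cycle. Glucagon is known to favour the periportal programme. The question put to these data is how the members of this glutamine system, and the other Wnt-dependent genes beside them, stood in the 4 groups.

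Of the 7 members tested, 3 passed with G108 on SP, where 2.72% of all genes tested did. They were Oat, Gls2 and Slc1a2, all of them higher, and Lgr5 was too scarce to test. The pericentral synthase gene Glul, the ammonia channel gene Rhbg and the Wnt-dependent genes Axin2 and Tbx3 did not pass. On HP no member passed, where 1.22% of all genes tested did. In scaled TPM on HP the 4 G108 livers all lay above the 4 vehicle livers for Oat, Gls2, Slc1a2 and Axin2, and all below them for Rhbg. The share of all genes whose groups separate in this way was not computed, so here and below such a separation is a description and not a test. Gls2 is periportal, and Oat and Slc1a2 are pericentral.

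Levels below are TPM, which measure a transcript per length as a share of its library, divided by a size factor for each library, called scaled TPM. The factor is the median ratio of each library's genes to their mean over all libraries, and it is used because a few genes took much of each library. The 49 Mup genes, which encode secreted urinary proteins, took a median of 45.3% of TPM in vehicle SP, 39.5% in vehicle HP, 21.3% in G108 SP and 24.9% in G108 HP. Mitochondrial genes took medians of 16.1%, 17.5%, 19.0% and 24.2% in the same order, and at most 37.3%, in a G108 HP liver. Since TPM sum to the same total in every library, the deposited TPM of other genes move with both shares. The median gene stood 0.60 higher on the log2 scale with G108 on SP in TPM as deposited, 0.09 higher with G108 on HP and 0.35 lower with HP than SP under G108. After scaling, the difference of the median gene lay between -0.008 and 0.006 in all 5 comparisons. The main results on TPM as deposited are therefore given beside the scaled ones. Depth recovered from the values was 27.8 to 45.0 M reads per library. Of the members, 7 had a mean of at least 1 TPM and were tested, which leaves Lgr5 as values.

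The defining genes of liver were present. On the deposited scale 4 hepatocyte markers summed to 17326 to 36920 TPM in vehicle SP and 27382 to 38751 in vehicle HP. They summed to 37698 to 57124 in G108 SP and 23701 to 44377 in G108 HP. The 3 kidney markers stayed below 0.1 TPM each and the summed brain markers reached at most 0.648 TPM, which bears on Glul and Slc1a2 because astrocytes express both, and on Rhbg and Gls2 because kidney does. The 7 endothelial markers summed to 13.98 to 22.6 TPM in vehicle SP, 16.2 to 22.7 in vehicle HP, 18.6 to 28.7 in G108 SP and 18.6 to 22.6 in G108 HP, on the deposited scale. None of the tested markers of hepatocytes, endothelium, bile duct, stellate or immune cells passed the test in any comparison. Those tested were 4 for hepatocytes and 5 for endothelium, but only 1 for bile duct, 2 for stellate cells and 1 for immune cells. In bulk tissue, a smaller pericentral zone and less RNA per pericentral cell cannot be told apart.

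**Figure D1:**
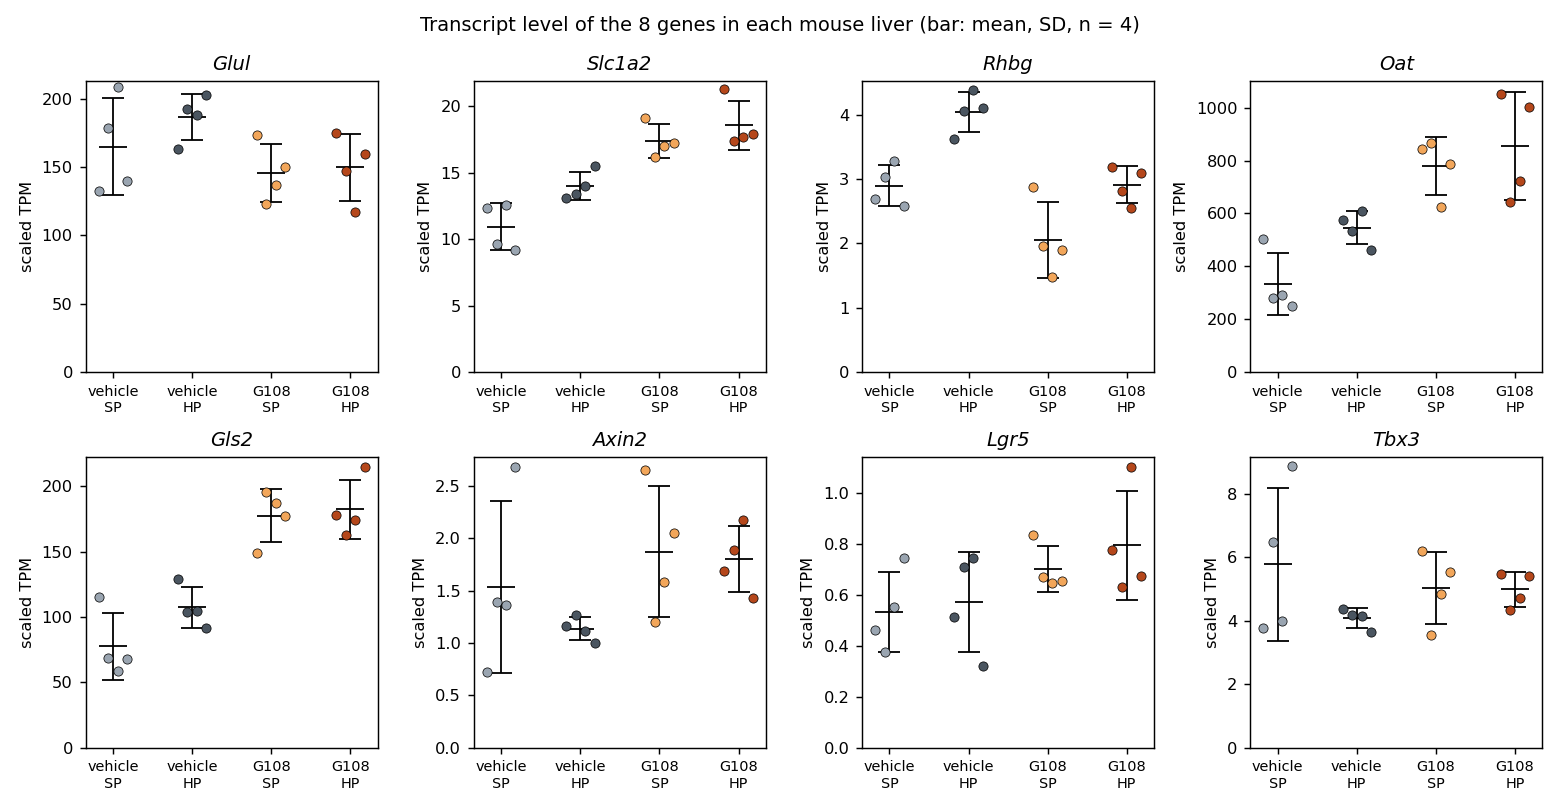
Scaled TPM (vertical axis, from 0) of the 8 genes in each of the 16 livers, as points, with the mean and SD of the 4 livers in each group. Oat, Gls2 and Slc1a2 are higher in the G108 groups, whereas the points of Glul, Lgr5 and Tbx3 overlap across groups.

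The first member to consider is glutamine synthetase, the defining enzyme of the innermost pericentral hepatocytes. Glul (ENSMUSG00000026473, chr1:153899944-153909723, plus strand, GRCm38) read 133, 179, 208 and 140 scaled TPM in the 4 vehicle SP livers and 163, 192, 188 and 203 in vehicle HP. It read 173, 123, 137 and 150 in G108 SP and 175, 147, 117 and 160 in G108 HP. The groups overlapped in every comparison. The difference between G108 and vehicle was a log2 fold change of -0.16 ± 0.16 (SE) on SP at an adjusted p of 0.589 (limma), while HP gave -0.33 ± 0.16 at 0.475. The 95% interval on SP ran from -0.51 to 0.18. The direction on SP depends on the scale, because in TPM as deposited Glul was higher with G108 by 0.61 on the log2 scale, adjusted p = 0.0412, which is close to the shift of the median gene. With vehicle, HP differed from SP by 0.20 ± 0.16, adjusted p = 0.832. The microRNA gene Mir8114 overlaps Glul on the same strand, with a mean of 211 TPM as deposited, and their reads may be shared.

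Slc1a2 (ENSMUSG00000005089, chr2:102658659-102790784, plus strand) encodes the glutamate carrier that supplies this enzyme. Vehicle SP livers read 12.3, 9.62, 12.6 and 9.18 scaled TPM and vehicle HP livers 13.1, 13.4, 14.02 and 15.5. G108 SP livers read 19.1, 16.2, 17.0 and 17.2 and G108 HP livers 21.3, 17.3, 17.7 and 17.9. All 8 G108 livers thus stood above all 8 vehicle livers, and all vehicle HP livers above all vehicle SP livers. G108 raised Slc1a2 on SP by 0.63 ± 0.11 on the log2 scale, 1.55-fold, adjusted p = 0.00522, and by 1.36 in TPM as deposited, adjusted p = 0.000144. On HP the difference was 0.38 ± 0.11, adjusted p = 0.127. With vehicle, HP differed from SP by 0.34 ± 0.11, with an unadjusted p of 0.00689 and an adjusted p of 0.832. The antisense gene Gm13872 overlaps Slc1a2, with a mean of 9.70 TPM as deposited against 16.1 for Slc1a2, and their reads may be shared.

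Rhbg (ENSMUSG00000104445, chr3:88242874-88254709, minus strand), the ammonia channel of the same cells, was the only member whose 95% interval lay below 0 with G108 on both diets after scaling. Vehicle SP livers read 2.69, 3.03, 3.28 and 2.57 scaled TPM and vehicle HP livers 3.63, 4.05, 4.38 and 4.11. G108 SP livers read 2.88, 1.96, 1.47 and 1.89, and G108 HP livers 3.19, 2.81, 2.55 and 3.09. Vehicle HP stood above each of the other groups without overlap, while vehicle SP and G108 SP overlapped through mouse 1 of G108 SP. The log2 difference between G108 and vehicle was -0.37 ± 0.12 on either diet, with adjusted p = 0.120 on SP and 0.187 on HP. Without mouse 1 of G108 SP the SP difference was -0.49, adjusted p = 0.0129. With array quality weights, which let limma count noisy libraries for less, Rhbg was called lower with G108 on both diets, at an adjusted p of 0.00138 for SP and of 0.0285 for HP. In TPM as deposited the SP difference was 0.17, adjusted p = 0.339, so its direction also depends on the scale. The HP diet differed from SP by 0.37 ± 0.12 under either treatment, with adjusted p = 0.804 for G108 and 0.832 for vehicle. Between 91 and 277 reads per library lay behind these values, and the gene overlaps the predicted gene Gm38392 on the same strand, whose reads cannot be told apart from its own.

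Oat (ENSMUSG00000030934, chr7:132557478-132576398, minus strand) encodes the mitochondrial ornithine aminotransferase and was the most abundant member, with 169 to 1242 TPM as deposited. Vehicle SP livers read 505, 281, 291 and 248 scaled TPM and vehicle HP livers 577, 535, 610 and 463. G108 SP livers read 842, 865, 624 and 789 and G108 HP livers 1053, 643, 722 and 1004. Every G108 liver stood above every vehicle liver, and vehicle HP stood above vehicle SP but for mouse 1 of vehicle SP. G108 raised Oat on SP by 1.28 ± 0.22 on the log2 scale, 2.43-fold, adjusted p = 0.00497, and by 2.05 in TPM as deposited, adjusted p = 0.000128. On HP the difference was 0.62 ± 0.22, adjusted p = 0.235, from a higher vehicle level, since HP differed from SP by 0.77 ± 0.22 with vehicle (unadjusted p = 0.00296, adjusted p = 0.832). The effect of G108 on HP was smaller than that on SP by 0.66 ± 0.31, with an unadjusted p of 0.0491 and an adjusted p of 0.575 for this interaction. The interaction was -1.31 in TPM as deposited, with an unadjusted p of 0.00211 and an adjusted p of 0.0799, so a difference between diets did not pass on either scale.

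Promoter sequence was at hand from RefSeq (GRCm38.p6) for Glul, Slc1a2, Oat and Axin2, as 250 bases before and 50 bases after the start of transcription. The windows of the pericentral members that rose with G108, and that of Glul, which did not pass, are shown so that their letters can be compared. Both strands were searched for the TCF/LEF cores CTTTGAT and CTTTGAA, through which β-catenin acts, and for the CREB core TGACG and its palindrome TGACGTCA, through which cAMP acts. Capitals mark the matches, and the sequences read 5′ to 3′ on the strand of the gene.
Glul, chr1:153899679-153899978, plus strand: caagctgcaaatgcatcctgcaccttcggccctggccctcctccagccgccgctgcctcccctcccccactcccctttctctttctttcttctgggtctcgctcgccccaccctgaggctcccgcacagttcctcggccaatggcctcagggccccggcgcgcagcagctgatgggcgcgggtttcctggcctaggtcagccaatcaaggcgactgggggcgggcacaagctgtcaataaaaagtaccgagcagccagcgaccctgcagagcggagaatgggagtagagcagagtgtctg
Slc1a2, chr2:102706188-102706487, plus strand: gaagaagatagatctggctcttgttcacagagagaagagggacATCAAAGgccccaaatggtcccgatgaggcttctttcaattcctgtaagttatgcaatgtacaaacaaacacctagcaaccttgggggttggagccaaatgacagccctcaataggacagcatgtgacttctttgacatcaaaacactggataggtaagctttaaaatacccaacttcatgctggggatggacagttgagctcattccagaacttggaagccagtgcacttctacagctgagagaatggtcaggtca
Oat, chr7:132576349-132576648, minus strand: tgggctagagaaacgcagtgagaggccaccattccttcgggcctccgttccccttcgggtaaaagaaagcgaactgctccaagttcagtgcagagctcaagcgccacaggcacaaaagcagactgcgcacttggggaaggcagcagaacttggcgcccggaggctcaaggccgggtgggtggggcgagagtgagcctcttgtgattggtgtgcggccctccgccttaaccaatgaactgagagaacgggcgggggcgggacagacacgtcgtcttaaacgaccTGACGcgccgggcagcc
Slc1a2 held CTTTGAT on the opposite strand, printed as ATCAAAG, from 207 to 201 bases before the start. This window belongs to a start inside the gene and not to its first annotated base. Oat held TGACG from 33 to 37 bases after the start, inside the transcribed part. Glul and Axin2 held none of the 4 motifs. Of 32851 promoters of the same length, 8.65% held either TCF/LEF core, 20.8% the CREB core, which includes the palindrome, and 1.79% the palindrome, so neither match is rare. A match describes letters only.

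Gls2 (ENSMUSG00000044005, chr10:128194457-128210004, plus strand) is the periportal counterpart, and it moved with Oat. Vehicle SP livers read 115, 68.8, 58.5 and 67.8 scaled TPM and vehicle HP livers 129, 104, 105 and 92.0. G108 SP livers read 149, 196, 187 and 178 and G108 HP livers 178, 163, 175 and 215. All 8 G108 livers stood above all 8 vehicle livers. G108 raised Gls2 on SP by 1.23 ± 0.18 on the log2 scale, 2.34-fold, adjusted p = 0.00186, the smallest adjusted p of any member, and by 2.00 in TPM as deposited, adjusted p = 7.64e-05. On HP the difference was 0.76 ± 0.18, or 1.70-fold, at an adjusted p of 0.0589, and 0.89 in TPM as deposited, adjusted p = 0.0725. The scaled value rose to 0.217 without mouse 4 of vehicle HP. It fell under 0.05 without mouse 1 of vehicle SP (0.0120), mouse 4 of vehicle SP (0.0499) or mouse 1 of vehicle HP (0.0494). With vehicle, HP differed from SP by 0.50 ± 0.18, adjusted p = 0.832.

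Axin2, Lgr5 and Tbx3 report on the Wnt signal itself. AXIN2 is a scaffold of the complex that destroys β-catenin and is made in response to it, LGR5 is a receptor for R-spondins, and TBX3 is a transcription factor of pericentral hepatocytes. Axin2 (ENSMUSG00000000142, chr11:108920349-108950783, plus strand) read 0.721, 1.39, 1.36 and 2.68 scaled TPM in vehicle SP and 1.16, 1.27, 1.11 and 1.00 in vehicle HP. It read 2.65, 1.20, 1.58 and 2.06 in G108 SP and 1.69, 1.89, 2.18 and 1.44 in G108 HP. The vehicle SP livers spread more widely than any other group, from mouse 1 at the bottom to mouse 4 at the top, and the HP groups did not overlap. The log2 difference between G108 and vehicle was 0.21 ± 0.19 on SP at an adjusted p of 0.559, while HP gave 0.38 ± 0.19 at 0.481. In TPM as deposited Axin2 was higher with G108 on SP by 0.69, adjusted p = 0.00374, a value near the shift of the median gene. The antisense gene Gm11670 overlaps Axin2, and the strand setting of the read counting is not given in the sources used here, so their reads may be shared.

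Tbx3 (ENSMUSG00000018604, chr5:119670669-119684724, plus strand) read 3.76, 6.48, 3.99 and 8.90 scaled TPM in vehicle SP and 4.38, 4.19, 4.16 and 3.65 in vehicle HP. It read 6.19, 3.55, 4.84 and 5.54 in G108 SP and 5.49, 4.35, 4.73 and 5.42 in G108 HP. As for Axin2, mouse 4 of vehicle SP was the highest of all 16 livers, and every pair of treatment groups overlapped. The log2 difference between G108 and vehicle was -0.12 ± 0.20 on SP at an adjusted p of 0.744, while HP gave 0.23 ± 0.20 at 0.759. The SP difference turned to 0.08 without mouse 4 of vehicle SP and to 0.53 in TPM as deposited, adjusted p = 0.0422. Tbx3 overlaps the antisense gene Tbx3os1, whose mean of 5.64 TPM is close to the 5.09 of Tbx3.

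Lgr5 (ENSMUSG00000020140, chr10:115450311-115587780, minus strand) was the scarcest member, with a mean of 0.673 TPM and 76 to 277 reads per library. Vehicle SP livers read 0.462, 0.375, 0.551 and 0.743 scaled TPM, and vehicle HP livers 0.511, 0.709, 0.743 and 0.319. G108 SP livers read 0.834, 0.668, 0.645 and 0.654, and G108 HP livers 0.774, 0.630, 1.10 and 0.673. The groups overlapped on both diets. A limma voom fit on the recovered reads of all genes with a mean of at least 0.1 TPM, added after seeing the data, gave a log2 difference between G108 and vehicle of 0.43 ± 0.25 on SP at an adjusted p of 0.400, while HP gave 0.48 ± 0.24 at 0.539.

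Counted over members, 3 of the 7 tested passed with G108 on SP, all of them higher, against a background of 2.72% of 11839 genes in either direction. The members were chosen with earlier results of these data known, so the count is a description. The median log2 fold change of the members was 0.21, against -0.01 for all genes. On HP 0 of 7 passed in limma, and 4 of 7 had an unadjusted p under 0.05, where 1.22% of genes passed and 11.3% had such a p. The voom fit also called 0 members on HP, and limma with array quality weights called 4, which were Slc1a2, Oat and Gls2 higher and Rhbg lower, where it called 6.72% of genes and 23.5% had an unadjusted p under 0.05. In TPM as deposited 6 of 7 passed on SP, but so did 77.6% of all genes, and 0 of 7 passed on HP, where 1.11% of genes did. The 95% intervals of Slc1a2, Oat and Gls2 lay above 0 on both diets and that of Rhbg below it.

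**Figure D2:**
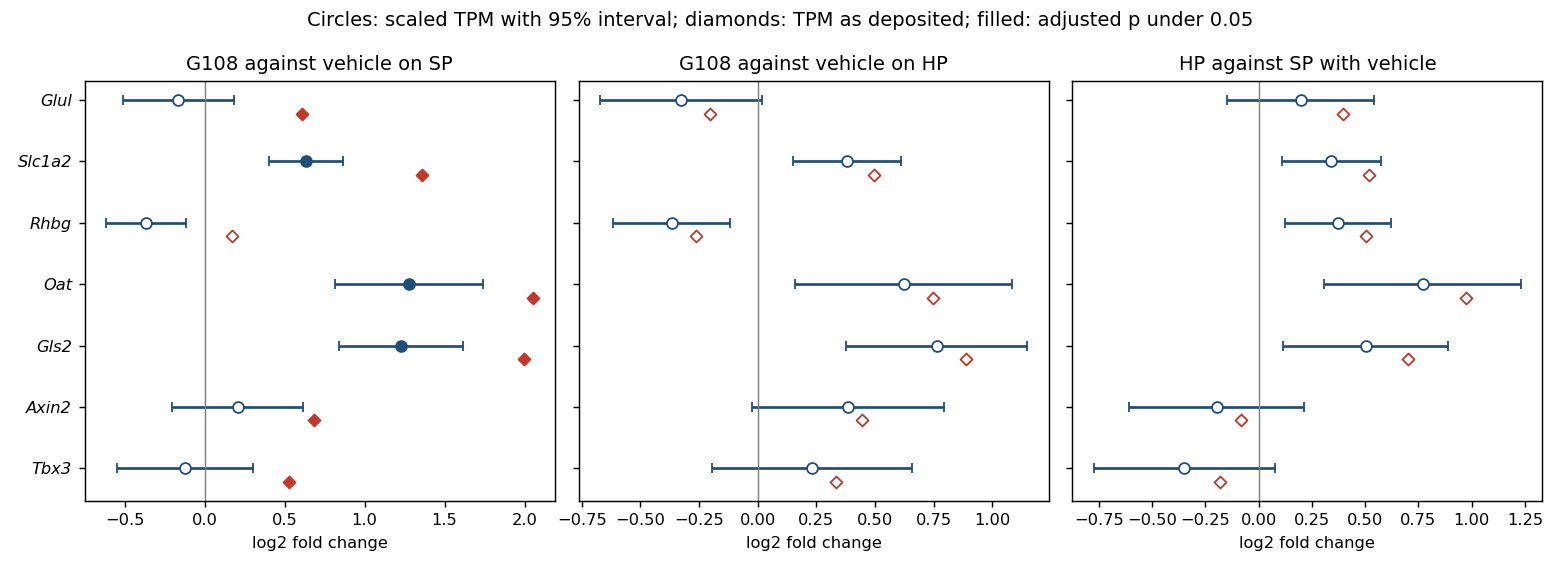
Log2 fold change (horizontal axis) of the 7 tested members in 3 comparisons, with circles and 95% intervals for scaled TPM and diamonds for TPM as deposited. Filled symbols mark an adjusted p under 0.05, which on scaled TPM are Slc1a2, Oat and Gls2 with G108 on SP.

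The comparison of diets passed for no member under either treatment, nor did the interaction, and the background was 0% of genes in all of these comparisons on either scale. With vehicle, 4 members had an unadjusted p under 0.05, where 3.94% of genes did, and all of them (Slc1a2, Rhbg, Oat and Gls2) stood higher on HP. The log2 differences of the 7 members between HP and SP with vehicle ran from -0.35 for Tbx3 to 0.77 for Oat. With G108 they ran from -0.02 to 0.37 after scaling and from -0.41 to 0.07 in TPM as deposited, and the direction turned between the scales for 5 of the 7. Rhbg was above 0 on both scales (0.37 and 0.07) and Axin2 below 0 on both (-0.02 and -0.33). For Oat, Gls2 and Slc1a2 the order of group means after scaling was the same: from G108 HP down to G108 SP, then vehicle HP, and last vehicle SP, with overlap between the G108 groups and a gap between G108 SP and vehicle HP. Slc1a2 alone of them also had a gap between the vehicle groups.

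The ratio of the Glul to the Gls2 transcript within each liver does not depend on scaling. The ratio was 1.15, 2.59, 3.56 and 2.07 in vehicle SP and 1.27, 1.85, 1.80 and 2.21 in vehicle HP. It was 1.16, 0.629, 0.729 and 0.846 in G108 SP and 0.981, 0.905, 0.671 and 0.745 in G108 HP. Glul was thus the more abundant transcript in all 8 vehicle livers and Gls2 in 7 of 8 G108 livers. The mean log2 ratio stood lower with G108 by -1.40 ± 0.39 on SP, where mouse 1 of each group met at nearly the same value, and by -1.10 ± 0.21 on HP, where the groups did not overlap. Between the G108 groups it differed by -0.005 ± 0.23. Both genes are members, so these are descriptions with no test, and on scaled TPM the larger change lay in Gls2.

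**Figure D3:**
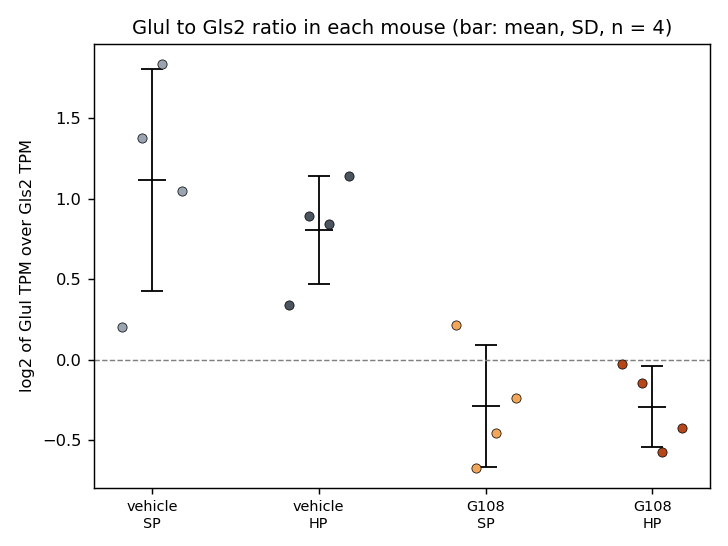
Log2 of the Glul to Gls2 ratio (vertical axis) in each liver, with the mean and SD of 4 livers per group and a dashed line where both transcripts are equal. All 8 vehicle livers lie above the line, and 7 of 8 G108 livers lie below it.

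Across the 16 livers some pairs of members varied together. Oat and Gls2 had r = 0.93, and r = 0.68 for the deviations from their group means. Slc1a2 and Oat had r = 0.90 over all livers and 0.48 within groups. Within groups Slc1a2 also had r = 0.49 with Glul and 0.47 with Rhbg, where the values over all livers were -0.13 and -0.20. With Gls2 it had r = 0.83 over all livers and -0.03 within groups. Glul went with Rhbg, at r = 0.74 overall and 0.73 within groups, and against Gls2, at -0.54 overall and -0.59 within groups. Axin2 went with Tbx3, at 0.74 overall and 0.80 within groups, and against Gls2 within groups, at -0.62. Glul and Axin2 had r = -0.24 overall and 0.10 within groups, although both are targets of β-catenin. These values describe libraries that share scaling and treatment.

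Over all tested genes, the levels most like Glul across the 16 livers were those of the pericentral cytochrome gene Cyp2e1 (r = 0.91, and 0.91 within groups), the glucuronosyltransferase gene Ugt2b36 (r = 0.90) and Pgrmc1 (r = 0.90), a haem-binding membrane protein gene. Those most like Gls2 were the cationic amino acid carrier gene Slc7a2 (r = 0.97), the cytosolic aspartate aminotransferase gene Got1 (r = 0.97) and the antisense gene Gm15690 (r = 0.97). Those most like Axin2 were Gm48552 (r = 0.85), Nfatc3 (r = 0.85), a transcription factor gene, and Gm11670 (r = 0.84), which overlaps Axin2 and may share its reads. In TPM as deposited Cyp2e1 still had r = 0.90 with Glul but ranked 192, since most genes then rise and fall together.

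**Figure D4:**
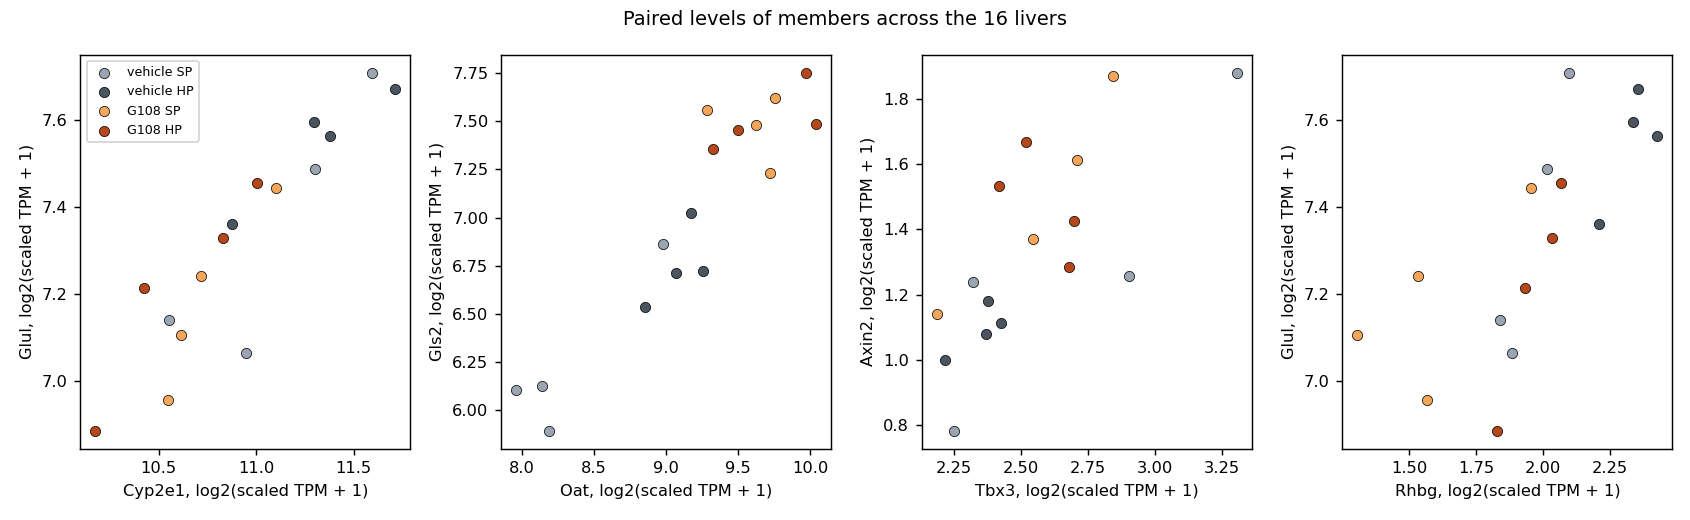
Log2(scaled TPM + 1) of Glul against Cyp2e1, Gls2 against Oat, Axin2 against Tbx3 and Glul against Rhbg, with 1 point per liver coloured by group. Glul follows Cyp2e1 (r = 0.91), and the G108 livers sit to the upper right of the vehicle livers for Oat and Gls2.

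Of 24 other pericentral genes listed, 23 were tested, 3 were called higher and 2 lower with G108 on SP, with a median log2 fold change of -0.11, where 2.72% of all genes were called. This list and those below were chosen with earlier results of these data known, so their counts are descriptions. As deposited, 15 of the 23 were called higher and 0 lower, with a median of 0.53, where 77.6% of all genes were called and their median was 0.60. Higher were the phosphatase gene Lhpp, by 0.84 ± 0.14 (adjusted p = 0.00544), the neutral amino acid carrier gene Slc1a4, by 0.53 ± 0.11 (adjusted p = 0.0204), and Znrf3, by 0.42 ± 0.08 (adjusted p = 0.00940). Lower were the nuclear receptor gene Nr1i3 (CAR), with -1.18 ± 0.25 (adjusted p = 0.0187), and the bile acid gene Cyp27a1, with -0.67 ± 0.15 (adjusted p = 0.0232). The calls of Nr1i3 and Cyp27a1 were lost without mouse 2, 3 or 4 of G108 SP, that of Cyp27a1 also without mouse 3 of vehicle SP, and that of Slc1a4 without mouse 4 of G108 SP or mouse 2, 3 or 4 of vehicle SP, at adjusted p values of at most 0.0832. In TPM as deposited Cyp27a1 read 0.10 and Nr1i3 -0.42, neither of them called. Cyp2e1 differed by -0.35 ± 0.25 on SP (adjusted p = 0.445) and Cyp1a2 by -0.37 ± 0.18 (adjusted p = 0.289), and both turned positive in TPM as deposited, at 0.42 and 0.40. Over the alternative settings the adjusted p of Cyp2e1 on SP ran from 0.0214 to 0.656, so its call depends on the setting. On HP, Znrf3 was the only gene of this list called, higher by 0.45 ± 0.08 (adjusted p = 0.0163), where 1.22% of all genes were called. Mean TPM as deposited for Znrf3 was 0.846 in vehicle SP, 0.942 in vehicle HP, 2.43 in G108 SP and 1.76 in G108 HP. It thus reached the 1 TPM needed for testing only through the G108 groups, and its calls are descriptions. Slc1a4 was also low in vehicle SP, at 0.526 TPM against 1.92 in G108 SP.

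All 24 of the other periportal genes listed were tested. On SP 7 were called higher and 0 lower, where 2.72% of all genes were called. Since earlier results of these data were known when the list was chosen, this count is a description and not independent support. Of the 24, 20 lay above 0, with a median log2 fold change of 0.67. The deposited scale called 21 higher, with a median of 1.40, where 77.6% of all genes were called and their median was 0.60. By the size of the change, the first of them were the steroid hydroxylase gene Cyp17a1 (1.79 ± 0.42, adjusted p = 0.0324), the gluconeogenic gene Pck1 (1.70 ± 0.38, adjusted p = 0.0243), the phospholyase gene Etnppl (1.52 ± 0.31, adjusted p = 0.0144) and the urea cycle gene Ass1 (1.21 ± 0.27, adjusted p = 0.0241). The serine dehydratase gene Sds rose by 1.19 ± 0.29 (adjusted p = 0.0413), a call lost without any of 11 of the 16 libraries, at an adjusted p of at most 0.121, whereas the histidase gene Hal differed by 0.48 ± 0.16 (adjusted p = 0.148) and the cadherin gene Cdh1 by 0.12 ± 0.23 (adjusted p = 0.789). On HP 0 of 24 passed in limma, where 1.22% of all genes did. An unadjusted p under 0.05 was found for 11, where 11.3% of all genes had one, and the median was 0.26. In TPM as deposited 1 was called higher, where 1.11% of all genes were called. The SP count depended on single mice: it was 11 without mouse 1 of vehicle SP, 3 without mouse 2 or mouse 4 of vehicle SP, 1 without mouse 3 of vehicle SP or mouse 2 of G108 SP, and 0 without mouse 3 or mouse 4 of G108 SP.

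Of 36 further genes of glutamine, glutamate and ammonia, 21 were tested. With G108 on SP 7 were called higher and 0 lower, where 2.72% of all genes were called. This list too was chosen with earlier results known, so the count is a description. The median log2 fold change of the list was 0.31. On the deposited scale 20 were called higher, with a median of 1.08, where 77.6% of all genes were called and their median was 0.60. Got1, which passes amino groups between aspartate and glutamate, rose most, by 2.24 ± 0.28 (4.73-fold, adjusted p = 0.000481). The mitochondrial ornithine carrier gene Slc25a15 rose by 1.19 ± 0.18 (adjusted p = 0.00274), the mitochondrial glutamate carrier gene Slc25a22 by 0.99 ± 0.22 (adjusted p = 0.0217) and the glutamine carrier gene Slc38a2 by 0.72 ± 0.17 (adjusted p = 0.0296). The glutamine carrier gene Slc38a3 differed by 0.31 ± 0.19 (adjusted p = 0.408) and the glutamate dehydrogenase gene Glud1 by 0.13 ± 0.17 (adjusted p = 0.671). On HP 0 of 21 passed in limma, where 1.22% of all genes did. An unadjusted p under 0.05 was found for 6, where 11.3% of all genes had one. In TPM as deposited 2 were called higher, where 1.11% of all genes were called. The SP count was 3 without mouse 2 of vehicle SP and 2 without any of mice 2, 3 and 4 of G108 SP, whereas Got1 and Slc25a15 passed without any 1 of the 16 libraries.

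**Figure D5:**
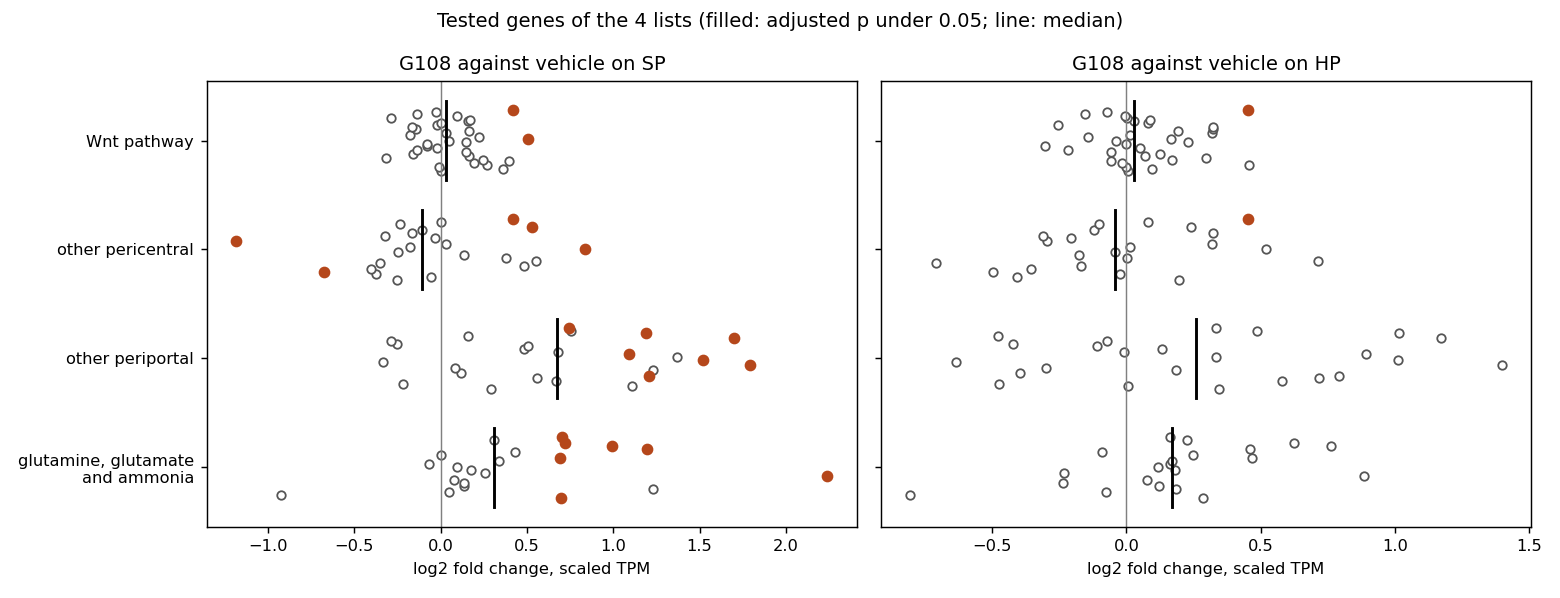
Log2 fold change (horizontal axis, scaled TPM) of each tested gene in 4 lists, with G108 against vehicle on SP on the left and on HP on the right. Filled points have an adjusted p under 0.05 and lines mark medians, which on SP are 0.03 for the Wnt pathway, -0.11 for other pericentral, 0.67 for other periportal and 0.31 for glutamine, glutamate and ammonia genes.

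Within the Wnt pathway itself, 33 of 54 listed genes were abundant enough to test. On SP, 2 were called higher and 0 lower: the co-receptor gene Lrp5, by 0.50 ± 0.11 (adjusted p = 0.0204), and Znrf3, which encodes a ligase that removes Wnt receptors. Znrf3 is the same gene counted in the pericentral list, with means under 1 TPM as deposited in both vehicle groups. Of all genes, 2.72% were called on SP and 1.22% on HP. On SP 4 of the 33 had an unadjusted p under 0.05, where 17.7% of all genes had one. On HP 5 did, where 11.3% of all genes did. On HP only Znrf3 was called, and without mouse 3 or mouse 4 of vehicle HP or mouse 3 of G108 HP its adjusted p rose above 0.05, to at most 0.0683. Lrp5 lost its call without mouse 2, 3 or 4 of G108 SP or mouse 4 of vehicle SP, at an adjusted p of at most 0.0783. The medians of the list were 0.03 on both diets. The 17 tested genes of the destruction complex and effectors had 0 calls on either diet, with 1 at an unadjusted p under 0.05 on SP, where 17.7% of all genes had one, and 2 on HP, where 11.3% did. Ctnnb1, which encodes β-catenin, differed by 0.40 ± 0.20 on SP (adjusted p = 0.308), its partner gene Tcf7l2 by -0.29 ± 0.17 (adjusted p = 0.375) and the R-spondin receptor gene Lgr4 by 0.05 ± 0.10 (adjusted p = 0.801). In TPM as deposited 28 of the 33 were called higher on SP, where most genes were.

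The ligands of the central vein were scarce in whole liver. Wnt2 read 0.656, 0.935, 0.740 and 0.412 scaled TPM in vehicle SP and 0.261, 0.310, 0.529 and 0.366 in G108 SP, from 15 to 52 reads. It read 0.641 to 0.701 in vehicle HP and 0.344 to 0.864 in G108 HP. Rspo3 read 0.782 to 1.29 scaled TPM in vehicle SP, 0.808 to 1.10 in vehicle HP, 0.635 to 0.810 in G108 SP and 0.528 to 1.03 in G108 HP. The groups overlapped for both genes in each comparison of treatments. Between vehicle SP and G108 SP the direction of the Rspo3 means turned with the scale, from 0.992 and 0.718 scaled TPM to 0.826 and 0.996 TPM as deposited. Wnt9b read 0.121, 0.332, 0.126 and 0.412 scaled TPM in vehicle SP and 0.208, 0.226, 0.117 and 0.0857 in vehicle HP. It read 0.0956, 0.0489, 0.104 and 0.139 in G108 SP and 0.284, 0.286, 0.289 and 0.171 in G108 HP. The vehicle and G108 groups overlapped on both diets, whereas the G108 HP livers, with 21 to 37 reads, all lay above the G108 SP livers, with 6 to 22. In the voom fit that reaches down to 0.1 TPM, Wnt2 differed between G108 and vehicle on SP by -0.83 ± 0.34 (unadjusted p = 0.0241, adjusted p = 0.237). Wnt9b differed there by -1.18 ± 0.48 (unadjusted p = 0.0236, adjusted p = 0.235) and Rspo3 by -0.41 ± 0.23 (unadjusted p = 0.0912, adjusted p = 0.379). On HP the differences were -0.31 ± 0.31 for Wnt2, 0.68 ± 0.42 for Wnt9b and -0.32 ± 0.23 for Rspo3. Between the G108 groups Wnt9b stood higher on HP by 1.39 ± 0.46, with an unadjusted p of 0.00787 and an adjusted p of 0.887, and the interaction was 1.86 ± 0.64, with an unadjusted p of 0.00922 and an adjusted p of 0.626. None of the 3 genes passed in any comparison of this fit.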

How the data were processed

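Liver RNA of 16 mice was sequenced at Novogene. The authors checked reads with FastQC 0.11.8, aligned them to GRCm38 with HISAT2 2.0.5, counted them per gene with featureCounts and ran DESeq2 1.36.0. The values deposited by the authors are TPM, computed from counts and exon lengths, in 1 table of 55487 genes and 16 libraries. Gene symbols, coordinates and exon lengths were taken from GENCODE vM21, of the same build but an earlier release than the authors' annotation. Reads were recovered from the steps of low TPM, of which 98.6% lay within 0.02 of a whole read.

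Members and gene lists were chosen with earlier results of these data known. TPM were divided by median-of-ratios factors from 11591 genes, and the 11839 genes whose mean reached 1 TPM were tested as log2(scaled TPM + 1) in limma 3.58.1 (R 4.3.3), with 4 group means, an intensity trend and Benjamini-Hochberg adjustment over all of them. Fold changes on this scale understate those of low genes. A call is an adjusted p under 0.05. Differences are G108 minus vehicle or HP minus SP, and levels are given for all 4 mice of a group. Each library is 1 mouse, and the 2 contrasts of G108 share no mice. Tested on simulated data for G108 against vehicle on SP with 11839 genes, the model called 79.5% of 200 genes changed by a log2 of 1, and 4.79% of its 167 calls were wrong. The simulated noise was independent between genes and of equal spread in every library, so noise shared by genes and noisy libraries are not covered. Among the members on SP only Oat and Gls2 changed by more than 1, so the share recovered does not apply to the others. No library duplicated another (r within groups 0.929 to 0.989).

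Genes named were the members, fixed anchor genes, up to 4 called genes of each list per comparison by size of change, and the 3 genes most like Glul, Axin2 and Gls2. Alternatives changed the scaling, pseudocount, filter, weights, samples and unit, and left out each library. Antisense and overlapping genes are uncertain, as the strand setting is not given in the sources used here.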

Additional observations from a re-analysis of the deposited data

How the results depend on the processing

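Oat, Gls2 and Slc1a2 kept their direction on SP under every alternative run and their calls under all but one: in fits of only the 2 groups compared the number of members called fell from 3 to 1, with Gls2 left (adjusted p 0.0503 for Oat and 0.0691 for Slc1a2). Leaving out each library gave 3 to 4 calls on SP, the fourth being Rhbg, and 0 to 1 on HP, the latter Gls2. TPM as deposited gave 6 calls on SP. Array quality weights gave 4 calls on SP and 4 on HP, of which Rhbg was lower on each, and 1 between the diets under G108. TPM as deposited turned the direction on SP for Glul (0.61), Rhbg (0.17), Tbx3 (0.53), Cyp2e1 (0.42), Cyp1a2 (0.40), Cyp27a1 (0.10) and Tcf7l2 (0.22). With each library left out, the SP difference ran from -0.27 to 0.080 for Tbx3, from -0.11 to 0.29 for Cdh1 and from -0.035 to 0.11 for Lgr4. The log2 ratio of Glul to Gls2 ran from -1.71 to -1.16 on SP and from -1.25 to -0.99 on HP. Over all genes, the 322 calls on SP became 9185 in TPM as deposited, 1821 with array quality weights and 103 with only the groups compared, and 158 to 471 with a library left out. The 145 calls on HP became 795, 52, 77 with a mean TPM of at least 5, 43 without a filter and 17 to 216 with a library left out. HP against SP with G108 had 0 calls, and 297 with array quality weights. The cause of these differences was not tested.

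Same-numbered mice did not vary together (r from -0.57 to 0.53 over 24 pairs, with 4 of 16 libraries nearest to their own number), so the numbers were not taken to pair the mice. With the mouse number as a replicate block, 3 members were called on SP and 0 on HP, and calls over all genes fell to 213 and 35. Of the single-gene values under all alternatives, 1059 kept direction and call, 94 lost a call, 19 gained one and 12 turned direction. Depth limits Lgr5, with 76 to 277 reads per library, and the Wnt ligands, with fewer.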
